A study of Micropterus salmoides with 6 samples.

Results

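Genes of cortisol signalling were followed in the intestine of largemouth bass (Micropterus salmoides) after acute heat. They are 11 of 35854 genes in the deposited gene table, chosen by their symbols: the receptor genes nr3c1 and nr3c2, the cortisol enzyme genes hsd11b2 and hsd11b1la, and the target genes fkbp5, zbtb16a, zbtb16b, klf9, tsc22d3, sgk1 and dusp1. The heat group was held at 34 °C and the control group at 26 °C, and both were sampled after 9 h. All fish were bought from a farm, had been acclimated at the control temperature and carried no engineered allele, agent or other treatment that the labels name. Each of the 3 libraries per temperature pooled the intestines of 3 fish from 1 parallel, so the error given is that between pools and not between single fish. The labels name no age.

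Cortisol is the main glucocorticoid of bony fish and is released from the interrenal tissue under stress. It binds receptors in the cytoplasm that are held ready by HSP90 and its co-chaperones. The bound receptor enters the nucleus and raises or lowers genes that carry its response elements, and several of those genes feed back on the receptor. In the fish gut, cortisol is known for its effects on ion and water uptake. Teleosts have no aldosterone, so cortisol is also regarded as a ligand of their mineralocorticoid receptor.

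Total counts of the gene table ran from 8.24 M to 15.7 M in the heat libraries and from 12.3 M to 28.8 M in the controls. Levels below are in TPM (length-scaled abundance, as deposited), which allows genes to be compared, or in CPM (counts per 1e+06 of scaled library size), the scale of the test. TPM was used without the library scaling of CPM, and the scales can order the libraries differently. Differences are log2 fold changes, heat minus control, with a standard error (SE) and an adjusted p from edgeR over all 20326 genes tested, and the threshold was 0.05. Control replicate 1 stood apart: its log2 CPM correlated with the other controls at 0.875 and 0.853, against 0.932 between them. It was also the deepest library, at 28.8 M counts. Mitochondrial genes took 2.14% of its counts, and between 5.24% and 9.05% elsewhere. Annotated rRNA took 5.69% of the counts of heat replicate 1, the library of 8.24 M, and between 0.134% and 1.43% elsewhere. The enterocyte gene fabp2 was abundant, at 406, 1146 and 1052 TPM in heat replicates 1 to 3 and 2139, 535 and 419 TPM in control replicates 1 to 3. The enterocyte gene cdh17 averaged 496 TPM in heat and 562 TPM in control libraries. Another, anpepa, averaged 149 TPM in heat and 367 TPM in control libraries, and its groups did not overlap (edgeR adjusted p = 0.143). The enterocyte gene apoba had 0 counts in all 6 libraries.

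All 11 genes passed the count filter, zbtb16b through its heat libraries alone. Of these, 2 rose at 34 °C, zbtb16a and klf9, where 0.59% of all genes tested rose. None of the 11 fell in edgeR, where 0.394% of all genes tested fell; at an unadjusted p under 0.05, 5 of them were higher and 2 lower, where 1395 genes of the table (6.86%) were higher and 1988 (9.78%) lower, and DESeq2 called 5 higher and 1 lower (3.39% and 3.69% of its genes). Without control replicate 1 edgeR called the same 5 higher and the same 1 lower, where 4.61% and 4.11% of genes passed. Without each other library it called 0 of the 11, where 0.0287% of genes or fewer passed as higher and 0.0191% or fewer as lower (0.00476% higher without heat replicate 1). Genes fitted without lncRNA transcripts gave 4 higher (1.02% of genes) and 0 lower (0.729%). RLE and upper quartile scaling (0.64% of genes higher in each), no count filter (0.406%) and limma on log2(TPM + 1) (0.266%) called the same 2 higher, and limma on log2(TPM + 0.1) called zbtb16a alone (0.145%). On CPM, 5 genes lay higher in every heat library than in every control (fkbp5, zbtb16a, zbtb16b, klf9 and dusp1) and 1 lay lower (nr3c2). Of all genes tested, 11.5% lay apart upward and 14.4% downward. The median log2 fold change of the 11 genes was 0.36, beside -0.12 for all genes tested.

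**Figure D1:**
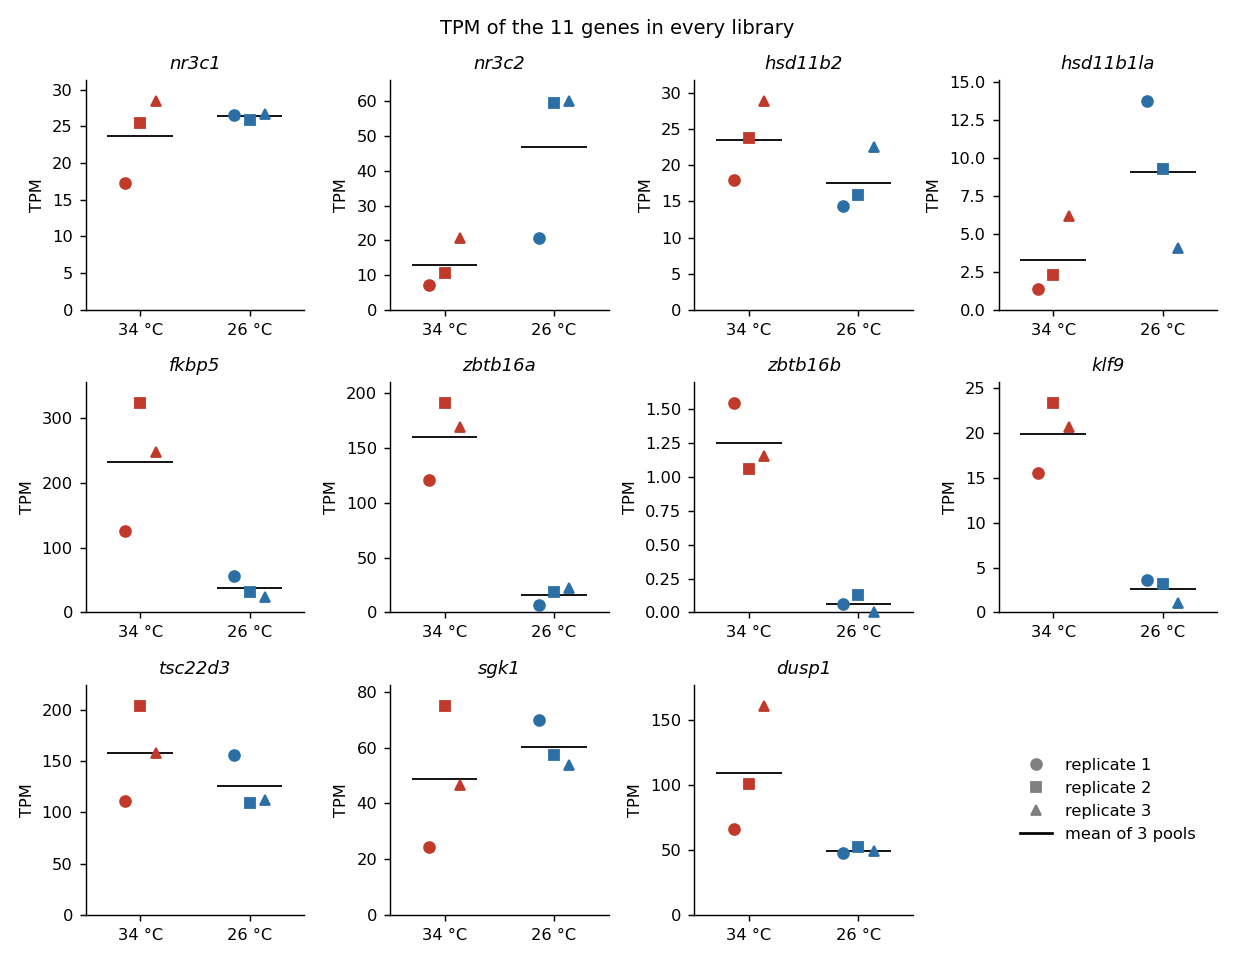
TPM of each of the 11 genes in every library, with the heat libraries (34 °C) on the left and the controls (26 °C) on the right of each panel; symbols mark replicates and lines the mean of 3 pools. For fkbp5, zbtb16a, zbtb16b, klf9 and dusp1 no heat library overlaps a control. The other 6 genes overlap, nr3c2 only where heat replicate 3 (20.8 TPM) meets control replicate 1 (20.7 TPM).

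The glucocorticoid receptor gene nr3c1 (NW_024044237.1, plus strand, 15451352 to 15521906) did not pass the test in either direction. It was at 17.3, 25.4 and 28.5 TPM in heat replicates 1 to 3, against 26.5, 25.9 and 26.7 TPM in control replicates 1 to 3. On TPM the 3 controls lay close together, and the lowest value was that of heat replicate 1, while heat replicate 3 was the highest of the 6. On CPM the heat pools were at 79.9, 77.5 and 85.3 and the controls at 115, 76.9 and 92.7, so that the groups overlapped. On that scale the order differed, with control replicate 2 the lowest and control replicate 1 the highest. The heat pools were the closer together, with a coefficient of variation of 4.95% against 20.1% in control libraries. In the fit it differed by -0.23 log2 units (SE 0.25, edgeR adjusted p = 0.693), and it ran from -0.37 to -0.05 with 1 library left out. In bulk intestine, fewer cells of a type and less RNA per cell cannot be told apart, here and for every gene below.

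The nr3c1 interval holds 3 other annotated genes on its own strand, LOC119889032, hspa4b and gnpda1, so its count is uncertain to the extent that the counting could not separate them. None of these 3 passed in edgeR: LOC119889032 had a log2 fold change of -0.41 (adjusted p = 0.810), hspa4b of -0.05 (adjusted p = 0.969) and gnpda1 of -1.57 (adjusted p = 0.209, unadjusted p = 0.0202). All 3 were highest in control replicate 1, at 28.1, 176 and 119 CPM, where nr3c1 was also highest on CPM (115). In control replicates 2 and 3 they were at 5.42 and 3.95, 64.0 and 53.4, and 28.6 and 36.4 CPM. Whether shared reads bear on the nr3c1 count was not tested. A pair of assembled lncRNA transcripts also lies within nr3c1, MSTRG.33149.1 on the same strand and MSTRG.33146.1 on the other. The first had 3, 4 and 6 counts in the heat libraries, against 65, 7 and 8 in the controls, and the second 8, 0 and 0 against 3, 10 and 0. Neither reached the count filter, and no other lncRNA transcript lay within 10 kb of any of the 11 genes.

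A further gene, LOC119881861 on a short scaffold (NW_024042006.1, minus strand, 3961 to 7613), is described as glucocorticoid receptor-like. It was at 12.1, 8.39 and 11.7 CPM in the heat libraries, against 8.54, 11.9 and 11.4 CPM in the controls, with full overlap. Its log2 fold change was 0.02 (SE 0.29, edgeR adjusted p = 0.986). On TPM it averaged 18.5 ± 4.24 in heat and 18.4 ± 6.12 in control libraries (SD, n = 3 each), below nr3c1 in both groups by its mean.

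The mineralocorticoid receptor gene nr3c2 (NW_024040263.1, plus strand, 7430630 to 7504037) was lower in the heat libraries but did not pass the threshold. It was at 41.8, 40.7 and 77.8 CPM in heat replicates 1 to 3, against 112, 222 and 263 CPM in the controls. Every heat pool lay below every control on CPM, and control replicate 1 was the closest to them. On TPM the heat pools were at 7.23, 10.6 and 20.8 and the controls at 20.7, 59.5 and 60.2, so heat replicate 3 and control replicate 1 met. Its fitted level was 3.72-fold lower (log2 fold change -1.89, SE 0.42), with an edgeR adjusted p of 0.0827. Without control replicate 1 it was -2.17 with an edgeR adjusted p of 0.0152, and DESeq2 called it lower with all libraries (adjusted p = 0.00125). It did not pass without each of the other libraries (edgeR adjusted p = 0.168 to 0.375), with the replicate block (0.129) or in limma (adjusted p = 0.278 and 0.302 on the TPM scales).

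The balance of the receptor transcripts differed between the pools. The nr3c1 to nr3c2 ratio on TPM was 2.39, 2.39 and 1.37 in heat replicates 1 to 3, against 1.28, 0.434 and 0.443 in control replicates 1 to 3. All heat pools and control replicate 1 held more nr3c1 than nr3c2, and the other controls held more nr3c2. The groups did not overlap, by a narrow gap between heat replicate 3 and control replicate 1. The mean log2 ratio was 0.99 in heat and -0.67 in control libraries, a difference of 1.66 (exact permutation test, two-sided p = 0.1, the smallest that 3 against 3 libraries can give).

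**Figure D2:**
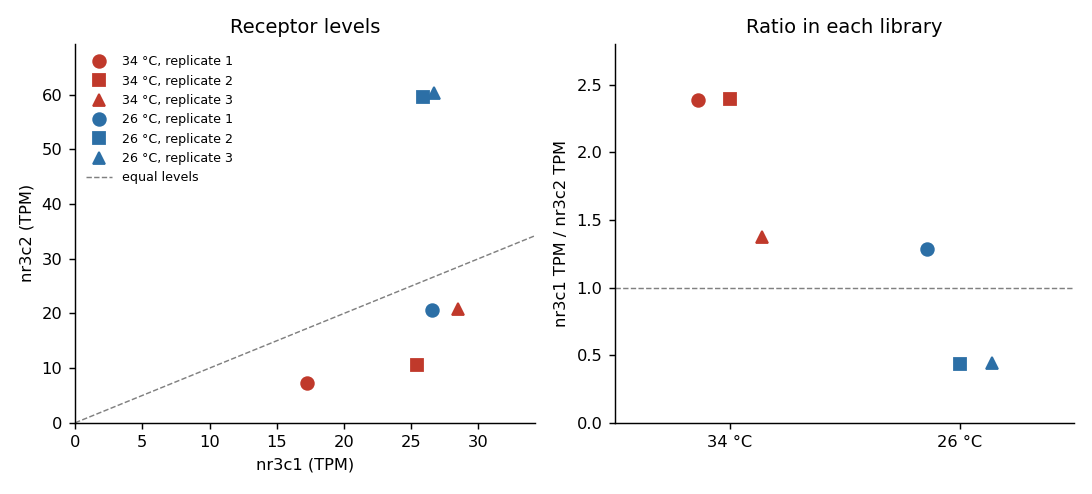
Left, nr3c2 against nr3c1 in TPM for each library, with a dashed line of equal levels; right, the nr3c1 to nr3c2 ratio, heat (34 °C) left of control (26 °C). Control replicates 2 and 3 lie above the line at ratios of 0.434 and 0.443, and control replicate 1, at 1.28, lies next to heat replicate 3, at 1.37.

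Smooth muscle genes were lower in the same heat libraries. Of 10 tested markers of that cell type 3 fell (synm, smtna and lmod1b) and all 10 had a log2 fold change below 0 (median -1.11). Over all 20326 genes tested, 11775 were below 0. At an unadjusted p under 0.05 there were 8 of the 10, and DESeq2 called 6 lower and 0 higher. Of all genes tested, 16.6% were at an unadjusted p under 0.05 in either direction, and 9.78% were lower at that p. In edgeR 0.59% of genes were called higher and 0.394% lower, and in DESeq2 3.39% and 3.69%. These shares are the background for the counts of every list in the text. The TPM of smooth muscle markers summed over the 12 in the table was 3347 to 4918 in heat and 5484 to 10063 in control libraries, with synpo2la at 0. Most of that sum was acta2, at 2246, 3301 and 2904 TPM in heat replicates 1 to 3. In control replicates 1 to 3 acta2 was at 6021, 3115 and 6772 TPM, so that its groups overlapped (edgeR adjusted p = 0.378). Heat and control ranges of the 6 enterocyte markers overlapped (1100 to 2312 TPM in heat and 1374 to 3846 TPM in control libraries). Of 5 tested, 0 passed in edgeR, with 1 at an unadjusted p under 0.05, and DESeq2 called 1 lower. In edgeR 4 of the 5 had a log2 fold change below 0 (median -0.53). Of 6 tested T cell markers 1 rose, ccr9a, which encodes a gut-homing chemokine receptor, and the other 5 had a log2 fold change below 0, with 2 of 6 at an unadjusted p under 0.05. Their TPM summed to 139 to 215 in heat and 87.1 to 120 in control libraries, with none at 0 in all; without ccr9a the sum was 32.5 to 75.9 TPM in heat and 62.9 to 92.3 TPM in control libraries. Of 4 macrophage and granulocyte markers 0 passed in edgeR, with 3 at an unadjusted p under 0.05, and 0 in DESeq2, and all 4 were below 0 (30.0 to 43.4 TPM in heat and 41.0 to 68.5 TPM in control libraries). Hepatocyte markers summed to 19.0 to 25.9 TPM in heat libraries and to 210, 20.4 and 319 TPM in control replicates 1 to 3. Of that sum apoc1 alone held all but 0.571 to 2.89 TPM in heat and 0.432 to 2.21 TPM in control libraries, and 0 of 2 tested passed in edgeR (unadjusted, 1 had p under 0.05; DESeq2 called 1 lower, apoc1). Exocrine pancreas (3 tested) and erythrocyte markers (5 tested) had 0 calls in edgeR and DESeq2 and 0 at an unadjusted p under 0.05. All 3 pancreas markers and 4 of the 5 erythrocyte markers had a log2 fold change below 0 (medians -0.84 and -0.31). Of 7 skeletal muscle markers 0 reached the filter. The part of tissue makeup in the level of nr3c2 or of the other genes was not tested.

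The gene hsd11b2 (NW_024044348.1, minus strand, 3160819 to 3182184) encodes the enzyme that inactivates cortisol to cortisone. It was at 36.6, 32.1 and 38.3 CPM in the heat libraries, against 27.6, 21.0 and 34.8 CPM in the controls. Heat replicate 2 lay below control replicate 3, and the other heat pools lay above all controls. Its log2 fold change was 0.36 (SE 0.26, edgeR adjusted p = 0.532).

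The gene hsd11b1la (NW_024040374.1, minus strand, 22053263 to 22059601) is named for its likeness to the enzyme that regenerates cortisol in mammals. It was a low gene, at 2.73, 2.85 and 7.44 CPM in the heat libraries and 24.1, 11.2 and 5.85 CPM in the controls. The controls spread widely, with control replicate 1 the highest and control replicate 3 within the heat range. For hsd11b1la the log2 fold change was -1.65 (SE 0.61, edgeR adjusted p = 0.235), and -0.94 without control replicate 1. The ratio of hsd11b2 to hsd11b1la on TPM was 12.7, 10.3 and 4.69 in heat and 1.04, 1.71 and 5.48 in control libraries, and the groups overlapped (exact permutation test, two-sided p = 0.2, where 0.1 is the smallest possible).

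Of 33 names of steroid synthesis and clearance around these enzymes 13 were in the table and 8 tested, and 0 passed in edgeR or DESeq2, with 2 at an unadjusted p under 0.05 in edgeR (median log2 fold change 0.12). The most abundant was abcb4, a transporter gene, at 424 ± 64.1 CPM in heat and 242 ± 61.0 CPM in control libraries (edgeR adjusted p = 0.256). Of 8 interrenal marker names 3 were in the table and 0 reached the filter. Among them star, which brings cholesterol into mitochondria, had 0, 8 and 2 counts in heat libraries and 0 in each control. The corticotropin receptor gene mc2r had 0 counts in all 6. The names not found under these symbols were not measured here. Of the 14 names of the corticotropin-releasing hormone axis 5 were in the table and 0 reached the filter.

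Among the targets, the transcriptional repressor gene zbtb16a (NW_024044681.1, plus strand, 13343667 to 13481663) rose. It was at 674, 705 and 611 CPM in heat replicates 1 to 3, against 35.0, 67.6 and 93.6 CPM in the controls. The lowest heat pool lay far above the highest control, and control replicate 1 was the lowest of all. This was 10.1-fold higher (log2 fold change 3.34, SE 0.43, edgeR adjusted p = 0.0259). Among the pools its coefficient of variation was 7.23% in heat and 44.9% in control libraries. With 1 library left out the log2 fold change stayed between 3.05 and 3.73, and its edgeR adjusted p was 0.00711 without control replicate 1 and 0.0606 to 0.168 without each of the others.

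Its paralog zbtb16b (NW_024042261.1, plus strand, 28028199 to 28048237) had few reads. It had 37, 37 and 36 counts in the heat libraries, against 4, 4 and 0 in the controls. The heat values all lay above the controls, which were near the limit of detection. For zbtb16b the log2 fold change was 4.27 (SE 0.84, edgeR adjusted p = 0.0614), and its size differed between scales: on log2(TPM + 1), which understates the change of low genes, it was 1.08. Without control replicate 1 the edgeR adjusted p was 0.0437, and without each of the others it was 0.125 to 0.269. LOC119883486, annotated across it on the other strand, had 0 counts in all libraries. On TPM zbtb16a averaged 160 ± 35.8 in heat and 15.9 ± 8.15 in control libraries, and zbtb16b 1.25 ± 0.259 and 0.0630 ± 0.0649 (SD, n = 3 each).

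The gene klf9 (NW_024044459.1, minus strand, 28929349 to 28933931), a Krüppel-like transcription factor induced by glucocorticoids in vertebrates, rose too. It was at 30.8, 30.5 and 26.5 CPM in heat libraries, against 6.65, 4.13 and 1.56 CPM in the controls. The heat pools were close together and the controls spread, with control replicate 3 the lowest. This was 7.02-fold higher (log2 fold change 2.81, SE 0.49), with an edgeR adjusted p of 0.0487, close to the threshold. That p was 0.0127 without control replicate 1 and 0.0701 to 0.248 without each of the others.

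The gene fkbp5 (NW_024043372.1, minus strand, 20484683 to 20498199) encodes the immunophilin FKBP51, which binds the HSP90-receptor complex and lowers its affinity for hormone. It was at 338, 576 and 434 CPM in heat replicates 1 to 3, against 145, 53.0 and 48.4 CPM in the controls. Every heat pool was above every control, and control replicate 1 lay between the other controls and the heat pools. Its fitted level was 5.48-fold higher (log2 fold change 2.45, SE 0.50), and it did not pass with all libraries (edgeR adjusted p = 0.0696). Without control replicate 1 it was 3.16 with an edgeR adjusted p of 0.00894. With all libraries DESeq2 called it higher (adjusted p = 1.78e-05), as did edgeR with genes fitted without lncRNA transcripts (adjusted p = 0.0415). Without each of the other libraries it did not pass (edgeR adjusted p = 0.165 to 0.313), nor with the replicate block (0.153) or in limma (adjusted p = 0.0760 and 0.0868 on the TPM scales).

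The gene dusp1 (NW_024044237.1, plus strand, 14226905 to 14230238), whose product dephosphorylates MAP kinases, was at 100.4, 101 and 158 CPM in heat libraries. It was at 67.9, 50.9 and 56.0 CPM in the controls. The groups did not overlap, and heat replicate 3 was the highest. A fitted 2.06-fold difference (log2 fold change 1.04, SE 0.29) did not pass in edgeR with all libraries (adjusted p = 0.130). It passed without control replicate 1 (log2 fold change 1.18, edgeR adjusted p = 0.0377) and in DESeq2 (adjusted p = 0.0161). It did not pass without each of the other libraries (edgeR adjusted p = 0.255 to 0.384), with the replicate block (0.239) or in limma (adjusted p = 0.430 and 0.445 on the TPM scales).

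The last 2 targets overlapped between the groups. The gene tsc22d3 (NW_024044237.1, minus strand, 20768870 to 20772200) encodes GILZ, an anti-inflammatory leucine zipper protein. It was at 150, 182 and 138 CPM in the heat libraries, against 197, 94.5 and 114 CPM in the controls. Control replicate 1 was the highest of all libraries, and the other controls lay below every heat pool. Its log2 fold change was 0.21 (SE 0.34, edgeR adjusted p = 0.802). That value was 0.60 without control replicate 1 and about 0 without control replicate 2 (-0.0023). A gene described as TSC22 domain family protein 3-like, LOC119915309, was at 6.87 ± 1.73 CPM in heat and 5.14 ± 0.608 CPM in control libraries (SD, n = 3 each; edgeR adjusted p = 0.565).

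The kinase gene sgk1 (NW_024040928.1, plus strand, 13512084 to 13546037), which raises ion transport in epithelia, was at 44.4, 90.04 and 54.8 CPM in heat libraries. It was at 119, 66.9 and 73.5 CPM in the controls. Heat replicate 2 lay above 2 of the controls, and the other heat pools lay below all of them. For sgk1 the log2 fold change was -0.46 (SE 0.36, edgeR adjusted p = 0.572), and -0.14 without control replicate 1.

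**Figure D3:**
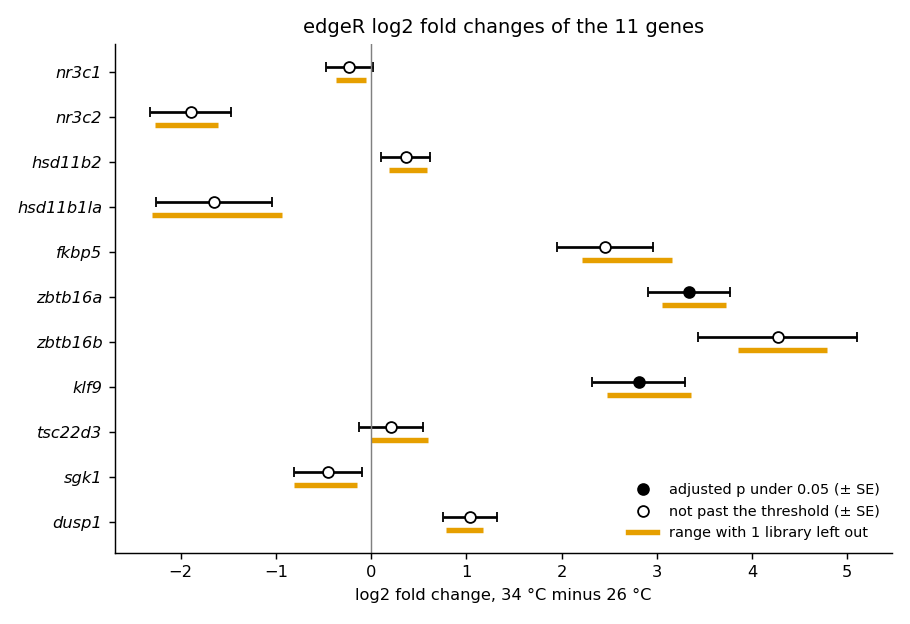
Log2 fold changes (34 °C minus 26 °C) of the 11 genes from edgeR with SE, ordered by role, and the range when each library is left out. Filled points, zbtb16a and klf9, passed the threshold; of the 11 ranges, that of tsc22d3 is the one that touches 0, at -0.0023.

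The 11 genes spanned a wide range of levels. Mean TPM over the heat libraries was highest for fkbp5 at 232 ± 99.3, then zbtb16a at 160 ± 35.8, tsc22d3 at 158 ± 46.6 and dusp1 at 110 ± 48.1 (SD, n = 3 each). Neighbours in that order had ranges that overlapped between libraries. Within each heat library fkbp5 lay above zbtb16a, at 126, 323 and 248 TPM against 121, 191 and 169 TPM in heat replicates 1 to 3. Below them came sgk1 at 48.7 ± 25.4, nr3c1 at 23.7 ± 5.80, hsd11b2 at 23.5 ± 5.50, klf9 at 19.8 ± 3.95 and nr3c2 at 12.9 ± 7.05 TPM, with ranges that overlapped between neighbours. The lowest in heat were hsd11b1la at 3.29 ± 2.52 and zbtb16b at 1.25 ± 0.259 TPM. In the controls tsc22d3 led at 126 ± 26.2 TPM, followed by sgk1 at 60.4 ± 8.52, dusp1 at 49.7 ± 2.28 and nr3c2 at 46.8 ± 22.6 TPM. Here tsc22d3 lay beyond the spread of sgk1, the lowest sgk1 library (53.8 TPM) lay just above the highest of dusp1 (52.2 TPM), and dusp1 and nr3c2 overlapped. Further down the controls held fkbp5 at 37.6 ± 17.1, nr3c1 at 26.3 ± 0.427, hsd11b2 at 17.6 ± 4.33, zbtb16a at 15.9 ± 8.15 and hsd11b1la at 9.06 ± 4.84 TPM, again with overlapping neighbours except nr3c1 above hsd11b2. At the bottom were klf9 at 2.60 ± 1.38 and zbtb16b at 0.0630 ± 0.0649 TPM. By mean TPM over all 6 libraries, tsc22d3 and fkbp5 stood at the 96.8th and 96.6th percentile of the genes tested, and zbtb16b at the 3.96th.

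Within their families the responses were uneven. The product of fkbp5 is 1 of many FK506-binding proteins, and of 18 fkbp genes in the table it held 42.7%, 58.0% and 52.1% of the summed TPM in heat replicates 1 to 3. In the controls it held 15.1%, 12.02% and 11.9%. By mean TPM it ranked 1 of 18 in heat and 4 in control libraries, where fkbp2 led, and 0 of the 14 other tested fkbp genes passed the edgeR threshold, while DESeq2 called 2 of them lower, fkbp1ab and fkbp10b. Its counterpart fkbp4, which encodes the immunophilin FKBP52 of the same receptor complex, was at 42.4, 43.1 and 34.0 CPM in heat and 53.1, 19.1 and 16.7 CPM in control libraries (log2 fold change 0.42, SE 0.45, edgeR adjusted p = 0.683). Without control replicate 1 the fkbp4 value was 1.16, with an edgeR adjusted p of 0.0207. That p was 0.763 to 0.882 without each of the others.

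The share of klf9 in the summed TPM of 16 klf genes was 6.28%, 4.77% and 4.64% in heat and 1.22%, 0.996% and 0.355% in control libraries. Of 13 other tested klf genes 1 rose, klf3, at 194 ± 19.6 CPM in heat and 67.2 ± 11.8 CPM in control libraries (SD, n = 3 each; log2 fold change 1.53, edgeR adjusted p = 0.0480). That call was lost without a count filter (edgeR adjusted p = 0.0634) and in limma (adjusted p = 0.173 and 0.190 on the TPM scales), and DESeq2 called klf3 higher and klf11a lower. The median of the KLF list was -0.48, with 9 of 13 genes below 0, where 11775 of all 20326 genes tested were below 0. Among 17 dusp genes, dusp1 held 29.0%, 25.4% and 38.5% of the TPM in heat and 17.1%, 19.1% and 22.9% in control libraries. By mean TPM it ranked 1 in heat and 2 in controls, where dusp16 led. Of 12 other tested dusp genes 1 rose, the MAP kinase phosphatase gene dusp8a, at 69.4 ± 15.7 CPM in heat and 20.8 ± 3.69 CPM in controls (log2 fold change 1.74, edgeR adjusted p = 0.0372). In limma it did not pass (adjusted p = 0.201 and 0.217), and DESeq2 called it higher and dusp10 lower.

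For tsc22d3 and sgk1 the shares did not separate the groups. The gene tsc22d3 held 80.8% to 84.6% of the TPM of 3 tsc22d genes in heat and 75.6% to 87.7% in control libraries. Among 4 sgk genes, sgk1 held 24.6% to 45.4% in heat and 30.5% to 33.0% in control libraries, and sgk2a was the most abundant in both. The sgk2a gene was at 164 ± 54.7 CPM in heat and 254 ± 100.1 CPM in control libraries (edgeR adjusted p = 0.462).

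**Figure D4:**
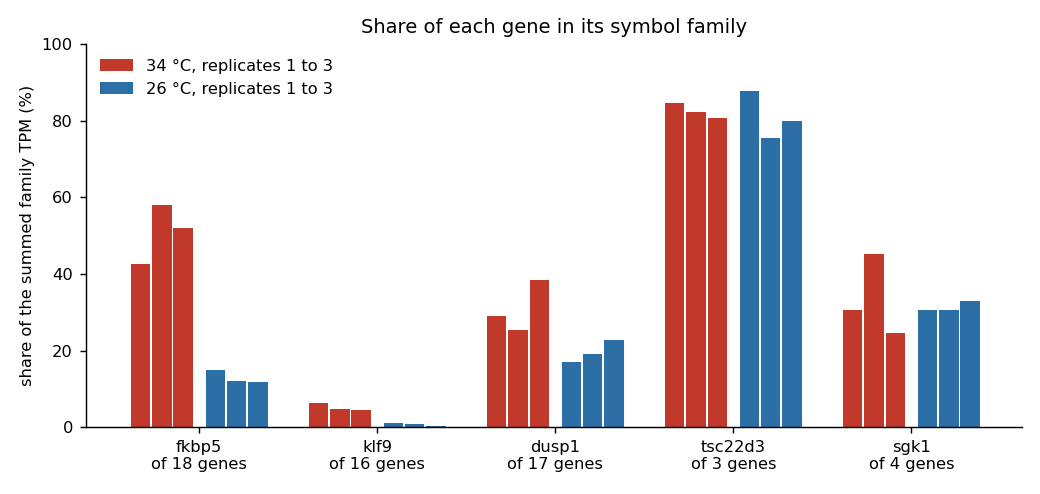
Share (%) of fkbp5, klf9, dusp1, tsc22d3 and sgk1 in the summed TPM of all genes with the same symbol stem, 1 bar per library, heat (34 °C) left of control (26 °C). The share of fkbp5 is 42.7% to 58.0% in heat and 11.9% to 15.1% in control libraries, while the bars of tsc22d3 and sgk1 overlap.

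In a wider list, glucocorticoid targets went both ways. Of 60 listed names, most known as such from mammals, 35 were in the table and 33 tested, among them tsc22d3; 2 rose, 1 fell and 30 did not pass (median log2 fold change 0.21, with 18 above 0 and 15 below), and DESeq2 called 8 higher and 4 lower. Over all 20326 genes tested, 8551 were above 0 and 11775 below. At an unadjusted p under 0.05 there were 17 of the 33, higher and lower together, where 16.6% of all genes tested were at that p. In edgeR 0.59% of genes were called higher and 0.394% lower, and in DESeq2 3.39% and 3.69%. The gluconeogenic gene pck1 was at 677, 733 and 596 CPM in heat libraries, against 111, 105 and 39.4 CPM in the controls (edgeR adjusted p = 0.0358; limma 0.0537 on log2(TPM + 0.1)). The transcription factor gene cebpb was at 202, 432 and 255 CPM in heat libraries, against 38.9, 33.1 and 46.7 CPM in the controls (edgeR adjusted p = 0.0259; limma 0.0565 and 0.0687 on the TPM scales). The clock gene per1b, which glucocorticoids induce in mammals, fell: it was at 14.4, 14.9 and 13.2 CPM in heat libraries, against 169, 214 and 250 CPM in the controls (log2 fold change -3.89, edgeR adjusted p = 0.00811). The mTOR inhibitor gene ddit4 had a log2 fold change of 2.66 (SE 0.52) and cebpd one of 2.26 (SE 0.49), with edgeR adjusted p of 0.0609 and 0.0795. Both passed in DESeq2 (adjusted p = 2.51e-05 and 0.0001), and in edgeR without control replicate 1 (0.0207 and 0.0124) and without lncRNA transcripts (0.0405 and 0.0473). Without each other library neither passed (edgeR adjusted p = 0.0827 to 0.263 and 0.158 to 0.342), nor did they in limma. Other listed targets short of the threshold lay on both sides. The genes socs1a and pdk2a were lower (edgeR adjusted p = 0.0851 and 0.0979), and igfbp1a, txnipa and socs3a were higher (0.0797, 0.0841 and 0.0920). The most abundant gene of the list, ndrg1a, was at 883 ± 196 CPM in heat and 608 ± 209 CPM in control libraries (edgeR adjusted p = 0.541).

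The chaperones that hold the receptor were mostly above 0. Of 15 tested genes 1 rose and 14 did not pass, 12 had a log2 fold change above 0, and the median was 0.59. Over all 20326 genes tested, 8551 were above 0. At an unadjusted p under 0.05 there were 6 of the 15, and DESeq2 called 4 higher and 0 lower. Of all genes tested, 16.6% were at that unadjusted p in either direction. In edgeR 0.59% were called higher, and in DESeq2 3.39%. The inducible HSP90 gene hsp90aa1.2 was at 79.9, 108 and 69.6 CPM in heat libraries, against 5.32, 3.03 and 1.65 CPM in the controls (edgeR adjusted p = 0.0203). The constitutive hsp90ab1, the most abundant, was at 2236, 2843 and 2683 CPM in heat and 2706, 829 and 1063 CPM in control libraries, with control replicate 1 in the heat range (edgeR adjusted p = 0.521). Without control replicate 1 its log2 fold change was 1.46 (edgeR adjusted p = 0.0207). That p was 0.681 to 0.785 without each of the others.

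Of 22 tested receptor coregulators 2 rose, 0 fell in edgeR and 20 did not pass (3 genes at an unadjusted p under 0.05, and 3 higher and 0 lower in DESeq2; median log2 fold change 0.11). Those that rose were cebpb, which the target list also holds, and hdac6, which encodes a cytoplasmic deacetylase of HSP90, at 120 ± 5.91 CPM in heat and 45.6 ± 8.03 CPM in control libraries (log2 fold change 1.39, edgeR adjusted p = 0.0491). The hdac6 call was lost with upper quartile scaling (edgeR adjusted p = 0.0516), without a count filter (0.0634) and in limma (adjusted p = 0.244 and 0.265). Of 11 tested effectors of SGK1, such as the ubiquitin ligase gene nedd4l and ion transporter genes, 0 passed in edgeR, with 2 at an unadjusted p under 0.05 and 1 called each way by DESeq2 (median -0.18). Of 4 tested genes for other steroid receptors and estrogen-related receptors 0 passed in edgeR, with 2 at an unadjusted p under 0.05 and 1 higher in DESeq2. The highest of them, the estrogen receptor gene esr2b, was at 105 ± 17.0 CPM in heat and 39.0 ± 7.31 CPM in control libraries (edgeR adjusted p = 0.0525). In edgeR esr2b passed with RLE (adjusted p = 0.0476) and upper quartile scaling (0.0428), without lncRNA transcripts (0.0335) and without control replicate 1 (0.0127). It did not pass without each other library (edgeR adjusted p = 0.143 to 0.286) or in limma (adjusted p = 0.172 and 0.189). Of the 25 tested fkbp, sgk, tsc22d and zbtb relatives 0 passed in edgeR, with 4 at an unadjusted p under 0.05 and 2 lower in DESeq2 (median -0.17).

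**Figure D5:**
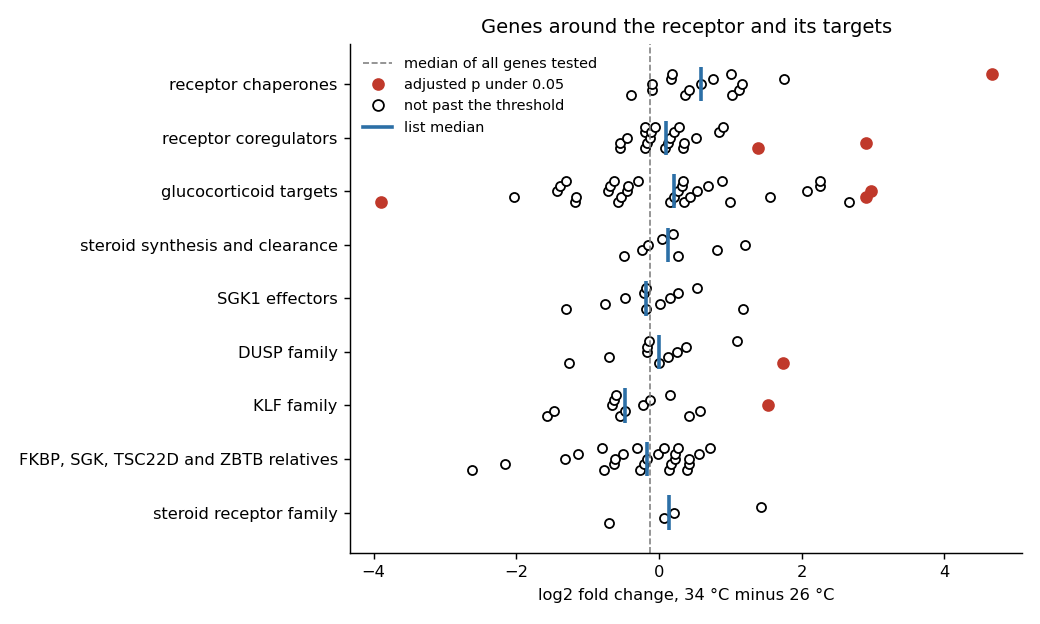
Log2 fold changes (34 °C minus 26 °C) of the tested genes of 9 lists around the receptor; filled points passed the threshold, short bars are list medians and the dashed line is the median of all genes tested, -0.12. The list medians run from -0.48 for the KLF family to 0.59 for the receptor chaperones, and the filled point on the far left is per1b.

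Some named genes followed the same course over the 6 libraries. Likeness was measured as the root mean square difference between log2 CPM profiles, each centred on its mean, over 8311 named genes of at least 5 CPM. The profiles hold the difference between heat and control, so the nearest genes to one that rose strongly are bound to have risen too. Their likeness is therefore no sign of a link. For klf9 the nearest was pck1 at 0.20 log2 units, followed by odc1, the polyamine synthesis gene, at 0.32 and dnaja at 0.40. For zbtb16a the nearest were grhl1 at 0.24, the clock gene arntl2 at 0.24 and the muscarinic receptor gene chrm4b at 0.29. The genes nearest to nr3c1 were pip4k2ca, tgfbr1b and cmpk2 at 0.06, 0.06 and 0.07, and the centred values of nr3c1 ran only from -0.18 to 0.40. On the scaffolds, nr3c1, dusp1 and tsc22d3 share NW_024044237.1, with gaps of 1.22 Mb between dusp1 and nr3c1 and 5.25 Mb between nr3c1 and tsc22d3.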

How the data were processed

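Each row of the deposited gene and lncRNA tables holds, per the file headers, a count and a TPM value per library; the authors made both. Tools in the submitters' processing notes are HISAT2 2.1.0, StringTie 1.3.3 and DESeq, with no role. No source used here gives the genome build or the strand setting, and positions are those of the tables. A RefSeq gene table (ASM1485139v1) was used to find rRNA genes; it matched 33187 of 35854 symbols and all 11 members.

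The main test was the quasi-likelihood test of edgeR 4.0.16 (R 4.3.3) on the deposited counts, with TMM scaling. Features were kept by filterByExpr (minimum count 10, minimum total 15). Genes and lncRNA transcripts shared 1 fit, leaving out 2488 assembled genes that repeat summed lncRNA transcripts. Adjusted p is Benjamini-Hochberg over 20326 genes, and SE comes from the F statistic. The fit was tested on simulated data. Alternatives were DESeq2 1.42.0, limma 3.58.1 on log2(TPM + 1) and on log2(TPM + 0.1) for features averaging 0.5 TPM or more, RLE and upper quartile scaling, no filter, genes alone, a replicate block and each library left out.

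The 11 genes and all lists were chosen with earlier results of these data known. From each list, up to 4 genes past the threshold and the most abundant one were named, besides 9 genes set by symbol, of which per1a is not analysed here. Left out were the most abundant exocrine pancreas (amy2a), erythrocyte (hbae5) and macrophage and granulocyte (ncf1) markers, which are not described. fkbp1ab, fkbp2, fkbp10b, klf11a, dusp10, socs1a, pdk2a, igfbp1a, txnipa, socs3a, star, mc2r and the marker genes cdh17, anpepa, apoba and apoc1 were named after their values were seen.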

Additional observations from a re-analysis of the deposited data

How the results depend on the processing

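The 11 genes kept their direction in all 14 alternatives, except tsc22d3, whose log2 fold change ran from -0.0023 without control replicate 2 to 0.60 without control replicate 1. Among the other genes named, dusp16 ran from -0.29 without control replicate 2 to 0.0069 without control replicate 1 (-0.16 with all libraries). The cause of each shift below was not tested. With 1 library left out, 0 to 5 of the 11 genes were called higher and 0 to 1 lower; the 5 and the 1 came without control replicate 1, and each other omission called 0, with 6 or 7 of the 11, and 2077 to 3219 genes of the table, at an unadjusted p under 0.05. The genes pck1, cebpb, per1b, hsp90aa1.2, hdac6, klf3 and dusp8a kept their edgeR calls without control replicate 1 and lost them without control replicate 2, without each heat replicate and with the replicate block. The same omissions called 0 to 965 genes of the whole table higher and 0 to 860 lower. Genes fitted without lncRNA transcripts gave 4 of the 11 higher, with 207 higher and 148 lower in the table. DESeq2 gave 5 higher and 1 lower of the 11, with 688 higher and 749 lower in the table. On log2(TPM + 1) the table held 57 higher and 19 lower, and on log2(TPM + 0.1) 31 higher and 10 lower, with 1 of the 11 higher. With the replicate block edgeR called 0 of the 11 and 0 genes either way (6 of the 11 and 2951 genes at an unadjusted p under 0.05). Deviations of same-numbered libraries correlated at -0.01, -0.01 and 0.04, so no shared deviation was visible. Whether the numbers pair the libraries is not given by the labels. The other scalings and no filter called the same 2 genes. Pools of 3 fish and 3 pools per temperature limit the precision, and zbtb16b rests on at most 37 counts in a library.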
